A study of Mus musculus with 20 samples.

Results

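Wide H3K14ac domains were taken as the peaks of more than 500 bp, end minus start, on chr1 to chr19 in the young or the old H3K14ac list from mouse liver. There were 461 such peaks in young liver, of 18885 H3K14ac peaks on these chromosomes, and 430 in old liver, of 20120. With overlapping peaks merged first the order turned, to 917 in young and 1126 in old liver. The members were thus chosen by their width, which comes from the same lists, and their widths and numbers are given as descriptions without a test. The series holds 175329 peaks in 6 lists of chromatin immunoprecipitation and sequencing (ChIP-Seq) from wild-type male C57BL/6 mice of 3 months (young) and 21 months (old), with no treatment and no transgene in any group. Lists were given for H3K14ac and for the methyltransferase Setdb1, each pooled from 3 livers per age by the labels and methods, and for the corepressor Kap1, pooled from 2 livers per age. For H3K14ac and for Setdb1 other passages of the study name fewer livers, which could not be settled from the lists. Each list is a single pooled call, so no spread between livers can be had and no difference between ages was tested. Shares carry 95% Wilson intervals that cover counting error only. Whole liver was used, so a peak present in fewer cells cannot be told apart from a peak that is weaker in every cell. Sequential ChIP samples of the series were not used here.

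Acetylation of lysine 14 on histone H3 is found at the start sites of active genes and at enhancers. Setdb1 methylates lysine 9 of the same histone tail, a mark of silent chromatin, and its Tudor domains can bind H3 that carries both marks. Kap1, also called Trim28, is brought to DNA by zinc finger proteins with a KRAB domain, above all at transposons and at zinc finger gene clusters, and recruits Setdb1 there. Broad acetylated domains in liver are therefore of interest at start sites, where they go with active genes, and at sites that also bind these repressors.

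The wide domains fell into groups of unlike sequence, shown here on the mm10 assembly (GRCm38), 5′ to 3′, on the plus strand unless stated. The first sequences, with CG dinucleotides in capitals, are the RefSeq promoters of Ezr on chr17:6782731-6783030 (minus strand) and of H1f0 on chr15:79027962-79028261, both wholly inside an old wide domain, and 200 bases from the middle of the widest young domain of the chromosome 1 array, on chr1:88228242-88228441. The Ezr promoter holds 38 CG in 300 bases and the H1f0 promoter 29, against 6 in 200 bases of the array domain, which lies in Mroh2a.
Ezr: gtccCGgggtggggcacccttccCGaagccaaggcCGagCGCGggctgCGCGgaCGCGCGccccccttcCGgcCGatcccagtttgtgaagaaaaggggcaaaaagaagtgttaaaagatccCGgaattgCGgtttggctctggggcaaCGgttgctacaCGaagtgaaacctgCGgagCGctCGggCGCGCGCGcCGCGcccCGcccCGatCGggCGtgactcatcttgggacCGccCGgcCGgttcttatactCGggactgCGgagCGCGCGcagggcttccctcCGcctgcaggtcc
H1f0: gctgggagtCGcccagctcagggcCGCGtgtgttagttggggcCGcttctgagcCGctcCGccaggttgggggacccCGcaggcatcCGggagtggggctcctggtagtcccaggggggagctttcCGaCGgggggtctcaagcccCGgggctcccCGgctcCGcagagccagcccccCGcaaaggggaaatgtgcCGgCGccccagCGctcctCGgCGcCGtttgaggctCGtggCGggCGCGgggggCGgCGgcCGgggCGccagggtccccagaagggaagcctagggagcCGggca
Mroh2a domain: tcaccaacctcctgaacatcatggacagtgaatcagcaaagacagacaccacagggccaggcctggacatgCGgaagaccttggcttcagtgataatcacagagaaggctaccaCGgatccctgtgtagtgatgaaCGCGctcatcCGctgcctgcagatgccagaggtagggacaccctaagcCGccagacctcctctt

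The next sequences come from the middle of the widest domain of both ages, on chr11:3192037-3192236 in the domain over Sfi1 and Drg1, and from the middle of the domain on chr17:39845803-39846002, where the annotation places Gm26917, Gm42418 and AY036118 and where the assembly holds a part of the ribosomal RNA repeat. The former holds 2 CG and the latter 25 CG in 200 bases (capitals).
Sfi1 domain: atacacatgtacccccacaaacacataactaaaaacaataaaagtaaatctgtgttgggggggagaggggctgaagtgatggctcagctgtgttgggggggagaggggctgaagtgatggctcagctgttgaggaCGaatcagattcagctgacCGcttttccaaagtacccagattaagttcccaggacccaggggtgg
Ribosomal RNA domain: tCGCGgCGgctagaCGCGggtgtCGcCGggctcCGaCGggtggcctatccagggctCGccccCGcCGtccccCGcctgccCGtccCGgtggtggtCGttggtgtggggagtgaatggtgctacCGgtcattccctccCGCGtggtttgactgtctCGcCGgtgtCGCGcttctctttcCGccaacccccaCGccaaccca

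The domain of 4011 bp on chr14:19415656-19419666 (old) is a tandem repeat of satellite sequence. Its bases matched those 351 bp further on at 58.4% of positions and those 234 bp further on at 55.4%. Stretches of 120 bases that lie 351 bp apart in it, chr14:19416913-19417032 and chr14:19417264-19417383, differ at 1 base, in capitals.
Unit 1: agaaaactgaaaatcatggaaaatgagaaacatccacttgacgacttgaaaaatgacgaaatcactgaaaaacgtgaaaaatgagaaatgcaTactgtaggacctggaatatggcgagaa
Unit 2: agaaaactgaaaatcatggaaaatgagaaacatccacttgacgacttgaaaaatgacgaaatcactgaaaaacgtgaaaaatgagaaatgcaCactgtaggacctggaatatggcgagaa
A run of 20 bases from the first unit, on either strand, occurred in 9 young and 9 old wide domains, at the gene models Gm10800 and Gm10801 on chromosome 2 and Gm10717 and Gm10722 at the start of chromosome 9 among others. Of these satellite domains, 5 of 9 in young and 8 of 9 in old liver carried a Kap1 peak of the same age, and 2 and 1 a Setdb1 peak. How many H3K14ac peaks of 500 bp hold this run is not given here, so the counts are descriptions of wide domains only. The domain at Gm10800, chr2:98666169-98667411 in young, had a width of 1243 bp in young liver (1252 bp in old) and lay under Setdb1 peaks at both ages, over 100% and 97.5% of its length.

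Other domains lie in duplicated gene clusters. A young domain of 586 bp on chr4:146173782-146174367, overlapping the gene models Gm26573 and Zfp600, had 8 further copies in the assembly by blastn. Its central 500 bp matched chr4:147036394-147036893, 863 kb away, at 97.6% identity with 12 differences. The first 150 bases of the match, chr4:146173825-146173974 and chr4:147036394-147036543, are shown with the 1 difference among them in capitals. No H3K14ac peak of either age was listed at this other copy.
Copy 1: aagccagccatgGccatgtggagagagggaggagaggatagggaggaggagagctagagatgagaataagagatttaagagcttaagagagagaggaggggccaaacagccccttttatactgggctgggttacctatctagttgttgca
Copy 2: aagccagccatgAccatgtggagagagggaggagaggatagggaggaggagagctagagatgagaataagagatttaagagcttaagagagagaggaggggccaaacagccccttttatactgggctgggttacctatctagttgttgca

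Widths ran from 502 to 15837 bp in young and from 501 to 15852 bp in old liver, with medians of 738 bp and 665.5 bp. The narrowest young members were a pair of 502 bp, on chr14:41141801-41142302 and chr17:13309247-13309748. The narrowest old members were 501 bp, at Pigv and Tnfrsf1b. Just below the limit there was a single value, since every other H3K14ac peak on these chromosomes was exactly 500 bp wide at both ages. Peaks wider than 1000 bp numbered 133 in young and 92 in old liver, and the upper quartile was 1065 bp (young) and 908 bp (old). The wide domains made up 2.44% of young peaks and 5.14% of the bases under them, 496 kb. In old liver they made up 2.14% of peaks and 4.20% of bases, 427 kb.

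**Figure D1:**
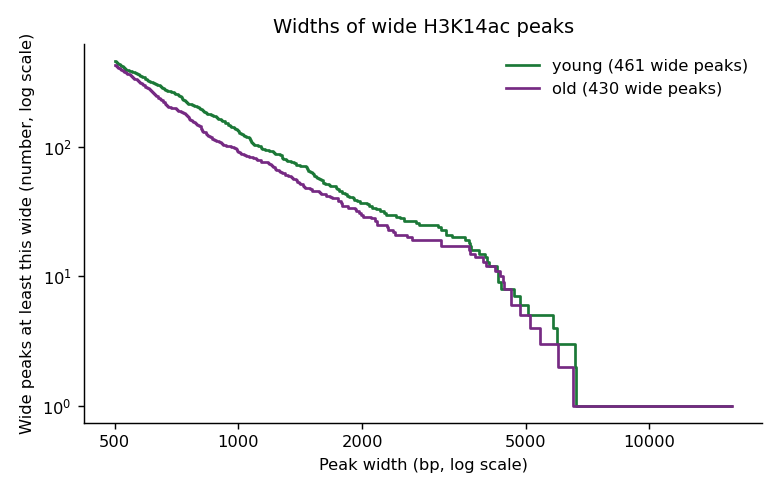
Number of wide H3K14ac peaks (vertical axis, log scale) at least as wide as the value on the horizontal axis (bp, log scale) in young (green, 461 peaks) and old liver (purple, 430 peaks). The young curve lies above the old one over most of the range for peaks as listed (merged first, 917 young and 1126 old peaks), and they end at a single domain of 15837 bp (young) and 15852 bp (old).

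The widest domain was the same at both ages, chr11:3184219-3200055 in young (15837 bp) and chr11:3184229-3200080 in old liver (15852 bp). It spans parts of Sfi1, a centrosome gene, and Drg1, a GTPase gene, and Kap1 peaks covered all of it in young and 99.97% of it in old liver. The ribosomal RNA domain on chromosome 17 spanned 5956 bp in the young list and 5999 bp in the old. Kap1 peaks covered 99.9% and 99.5% of it, and Setdb1 peaks covered 99.9% of it in young liver, with none listed in old liver. The domain at Gm49692 on chromosome 12 had 4292 bp at the young age (4337 bp at the old), with Kap1 over its whole length at both ages and Setdb1 over 99.9% of it in young liver. All 12 widest domains of each age carried a Kap1 peak, which covered at least 71.2% of each. No protein-coding start site lay within 1 kb of the midpoint of any of the 24. In domains of this width a start can lie far from the midpoint. Counted from any base of the domain, a start of Sfi1, Ugt1a1 or Mroh2a lay within 1 kb of domains among them at both ages. A start of Hjurp did so in old liver (5405 bp).

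Wide domains recurred at the other age far more often than peaks in general. An old H3K14ac peak overlapped 333 of 461 young wide domains, 72.2% (interval 68.0 to 76.1%), whereas 20.8% of all young autosomal peaks had one. A young peak overlapped 328 of 430 old wide domains, 76.3% (72.0 to 80.1%), against 20% of all old autosomal peaks. A longer peak has more bases to share, so the central 500 bp alone were also taken, and gave 68.8% and 74.9%. These shares lay above those of the 500 bp peaks, at 19.6% and 18.8%, at both ages. The counting intervals treat each domain as independent, though many lie together in clusters, so the difference was not tested. The partner was itself wide for 183 young (39.7%) and 187 old domains (43.5%). A further 150 young and 141 old domains had only a 500 bp partner, and 128 and 102 had none. Domains with a wide partner were the broadest, with medians of 1032 bp (young) and 873 bp (old), against 661.5 bp and 611.5 bp for those with no partner.

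**Figure D2:**
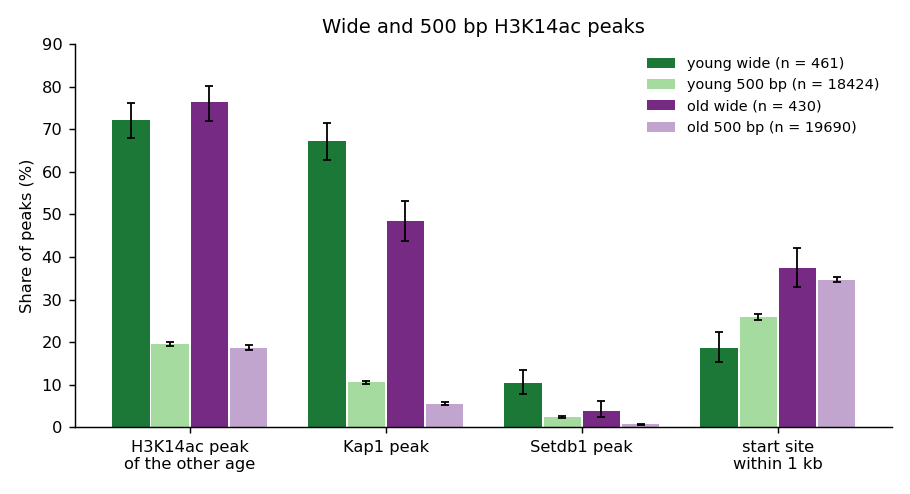
Share of H3K14ac peaks (%) with an H3K14ac peak of the other age, a Kap1 or Setdb1 peak of the same age, or a start site within 1 kb, for wide peaks (dark bars) and 500 bp peaks (light bars) in young and old liver, with 95% Wilson intervals as error bars. Wide peaks stand above 500 bp peaks in the first 3 groups of bars at both ages, and in the last group below them in young liver only.

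Of the young and old wide domains that overlapped each other most, 170 pairs could be formed, and 98 of them had widths within 1.5 times of each other. The young domain was the wider in 96 pairs and the old in 74, with a median old-to-young ratio of 0.967. The 5 largest losses of width with age lay at C230088H06Rik on chromosome 4 (from 6611 to 2372 bp, and a further domain from 3636 to 1184 bp), at 2700054A10Rik on chromosome 17 (from 6595 to 3754 bp), at Mup5 (from 3845 to 1274 bp) and at Zfp981 (from 4291 to 1936 bp). Each of these young domains overlapped 2 to 4 old peaks, which together covered 89.7% and 83.5% of those at C230088H06Rik, 88.7% of that at 2700054A10Rik, 55.8% of that at Mup5 and 78.1% of that at Zfp981. The 5 largest gains included 4 of the array on chromosome 1. These were at Ugt1a1 (from 1854 to 6518 bp), in Mroh2a (from 2215 to 4597 bp and from 1738 to 3636 bp) and in Trpm8 (from 3110 to 4618 bp). The remaining gain was at Gm14443 on chromosome 2, from 508 to 1966 bp. In the array too, a broad domain of one age was in places listed as several shorter peaks at the other. The old Ugt1a1 domain overlapped 5 young peaks, which together covered 90.5% of it.

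**Figure D3:**
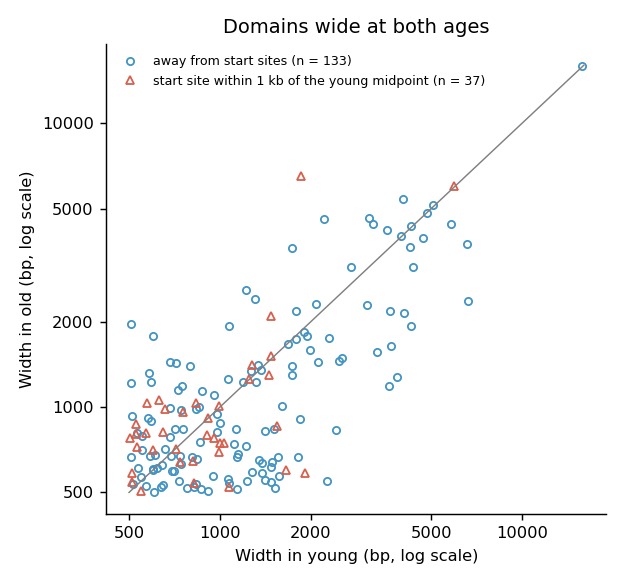
Width in old liver (vertical axis) against width in young liver (horizontal axis), both in bp on log scales, for the 170 pairs of domains wide at both ages, with equal widths on the grey line. Circles are domains away from start sites (133) and triangles those at start sites (37), and points lie on both sides of the line.

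The position of wide domains relative to genes differed between the ages. The midpoint lay within 1 kb of an annotated start site in 86 of 461 young domains, 18.7% (15.4 to 22.5%), below the 25.7% of all young peaks. In old liver it did so in 161 of 430 domains, 37.4% (33.0 to 42.1%), near the 34.7% of all old peaks. Old liver thus had 161 start-site domains where young liver had 86, but 269 domains away from start sites where young liver had 375. Of domains wider than 1000 bp, 13.5% of 133 in young and 19.6% of 92 in old liver lay at a start site. Old liver thus had no more of these broad start-site domains than young liver. For the starts of protein-coding genes alone, the shares of all wide domains were 14.5% and 34.0%. Without clusters of 10 or more, 34.9% of young and 65.4% of old domains lay at a start site. Both values were above the shares of all peaks, so the order against all peaks depended on these clusters.

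Start-site domains and the others had unlike sequences. In old liver the median GC content was 68.5% at start sites and 45.2% elsewhere, and the ratio of observed to expected CpG was 0.783 and 0.144. In young liver the medians were 52.7% and 44.2% for GC and 0.475 and 0.131 for CpG. Young start-site domains thus were less CpG-rich than the 500 bp peaks at start sites, whose median ratio was 0.688, while the old ones lay close to theirs, at 0.777. GGGCGG, the core of the GC box bound by Sp1, occurred on either strand in the central 500 bp of 69.6% of old start-site domains (62.1 to 76.1%) and 68.0% of old 500 bp peaks at start sites. It occurred in 38.4% of young start-site domains (28.8 to 48.9%) and 55.5% of young 500 bp peaks there. Away from start sites it occurred in 5.07% of young and 6.69% of old wide domains. ATCAAT, a core letter run of HNF6 sites, occurred in 18.6% of young (11.8 to 28.1%) and 4.97% of old start-site domains (2.54 to 9.50%), beside 6.88% and 4.96% of 500 bp peaks at start sites. This run is rich in A and T, and young start-site domains had the lower GC content, whose part was not tested. HNF6 binding cannot be read from these shares. CCAAT was found in 36.0% of young and 21.7% of old start-site domains, next to 36.5% and 31.4% of 500 bp peaks there, and TATAAA in 14% and 6.21%, next to 9.75% and 7.12%. TTAGGG was in 19.7% of young and 17.4% of old wide domains, and GGAATG in 27.5% and 20.9%, next to 18.6% and 18.0%, and 26.2% and 24.1%, of 500 bp peaks. Masked repeats made up a median of 15.3% of young and 11.3% of old wide domains, close to the 13% and 10.2% of 500 bp peaks.

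A wide domain lay within 1 kb of the start of 90 protein-coding genes in young and 165 in old liver, counted here from any base of the domain. Of these, 40 genes had one at both ages. A further 103 had a wide domain in old liver and only 500 bp peaks within that distance in young, and 22 had a wide domain in old and no young peak within 1 kb of the start. In the other direction, 37 genes had a wide domain in young liver with 500 bp peaks in old, and 13 had no old peak within 1 kb of the start. A domain of this last kind can still overlap a peak of the other age further off. A peak of any width lay within 1 kb of the start of 3957 protein-coding genes in young and 5746 in old liver. Many genes with an old peak thus had no young one. The share of all genes with a peak that lack one at the other age is not given here. The 22 and 13 genes are therefore descriptions only. Of the 103 genes, 50 had 2 or more young peaks there, and at 29 the young peaks together covered as many bases as the old ones or more. Of the 37, 21 had 2 or more old peaks, and at 10 these covered as much or more. With overlapping peaks merged first, 359 genes in young and 705 in old liver had a wide domain, 99 of them at both ages. The genes named next were picked after their values were seen, beside those that the rule on width brings in.

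Among start sites wide at both ages was Mat1a, the liver form of methionine adenosyltransferase, with 1274 bp (young) and 1407 bp (old). Igfbp4, which binds insulin-like growth factors, had 739 and 639 bp, and Angptl4, an inhibitor of lipoprotein lipase, had 546 and 504 bp. The chaperone gene Hsp90ab1 had 513 and 587 bp. The transcription factor genes Mycl and Klf13 had 657 and 984 bp, and 505 and 776 bp. All peaks within 1 kb of the start together covered 1157 bp (young) and 984 bp (old) at Mycl, and 3818 and 1276 bp at Klf13. The order of the ages thus turned at both genes. These totals were 1046 and 504 bp at Angptl4, and 1013 and 1087 bp at Hsp90ab1. Mat1a and Igfbp4 had a single peak at each age. Thus widths at these start sites lay on both sides of equality.

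Genes with a wide start-site domain in old liver and peaks of only 500 bp in young included Ezr, which ties the membrane to actin (1354 bp in old), the AP-1 gene Jund (1202 bp), Rai1 (1107 bp) and the linker histone gene H1f0 (1071 bp). These 4 are among the 12 widest old domains whose midpoint lies within 1 kb of a protein-coding start, as is 1600014C10Rik (1085 bp). All young peaks within 1 kb of the start together covered 1000 bp at Ezr, 1500 bp at Jund and 1500 bp at 1600014C10Rik, where all old peaks covered 1354, 1202 and 1812 bp. At Rai1 and H1f0 there was a single young peak of 500 bp. Other genes of this group were the growth factor receptor Egfr (813 bp), Arid1a (791 bp), Kdm2a (862 bp), Ep300 (743 bp) and Vegfa (553 bp). The nuclear receptor genes Rora and Rxra had 571 and 526 bp. All young and all old peaks together covered 500 and 1313 bp at Egfr, 1000 and 1791 bp at Arid1a, and 500 and 553 bp at Vegfa. These totals were 1358 and 1362 bp at Kdm2a, and 1293 and 1241 bp at Ep300, where young liver had the more. At Rora they were 500 and 1071 bp, and at Rxra 1000 and 1026 bp. Wide in old liver with no young peak within 1 kb of the start were, among others, the integrin gene Itga5 (812 bp), Atp5b of the mitochondrial ATP synthase (679 bp), the kinase gene Mapk14 (649 bp) and the methyltransferase gene Nsd1 (613 bp).

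Genes with a wide start-site domain in young liver and peaks of only 500 bp in old included Fth1 for ferritin heavy chain (1086 bp in young), Mbl1 for mannose-binding lectin (952 bp), Fbp1 of gluconeogenesis (817 bp), Gstz1 (815 bp), C3, the central complement component (729 bp), Hpn (716 bp) and Klf15 (698 bp). Several peaks lay at some of these, and together covered 2586 bp (young) and 1500 bp (old) at Fth1, but 2216 and 2372 bp at Hpn. Of young domains with the midpoint within 1 kb of a protein-coding start, the widest was at Sept11, at 1910 bp, and 2 old peaks, the wider of 585 bp, covered 52.1% of it. Wide in young with no old peak within 1 kb of the start were A630089N07Rik (1527 bp), Nlrp9b (1472 bp), Bscl2 (698 bp) and Acy3 (669 bp). The Nlrp9b domain overlapped an old wide peak of 546 bp that lay beyond this distance.

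Wide domains at the starts of fixed gene families, taken as protein-coding genes except for the immunoglobulin and noncoding lists, were read beside all 20778 protein-coding genes. Of these, 0.433% in young and 0.794% in old liver had a wide domain and 19% and 27.7% a peak of any width. At these wide shares the lists of 17 to 81 genes would hold less than 1 wide member each. Of 414 zinc finger genes, 3 had one in young (Zfp418, Zfp950 and Zfp981) and 2 in old liver, which is 0.725% and 0.483%, and 124 and 148 (29.95% and 35.7%) had a peak of any width. Of 31 genes for complement components and coagulation factors, C3 in young liver was the sole case. That list leaves out the complement regulators, of which Cr1l was wide at both ages (1000 and 748 bp) and Cd46 in young liver (652 bp). Among 328 vomeronasal receptor genes annotated as protein-coding Vmn2r-ps159 was the sole case, in young liver, while the pseudogene Vmn2r125 had one at both ages (1071 and 524 bp). None was found at either age among 67 histone genes with symbols in Hist, which leaves out H1f0, nor among 81 ribosomal protein, 80 cytochrome P450, 1127 olfactory receptor, 17 apolipoprotein, 23 Serpina and 394 immunoglobulin genes. A peak of any width lay at 34 and 47 of the ribosomal protein genes (42.0% and 58.0%) and at 9 and 7 of the apolipoprotein genes (52.9% and 41.2%) in young and old liver. Of 22420 predicted noncoding genes, 21 had a wide domain in young (0.0937%) and 37 in old liver (0.165%), beside 0.248% and 0.440% of all 51121 genes. Of 9 hepatocyte markers found in the annotation, 3 had a peak of any width at each age (Apoa1 and Apob at both), 33.3%, which is near the share of all protein-coding genes in old liver and so says little of the tissue, and none of 6 Kupffer and blood, 4 endothelial and 4 stellate cell markers did. Of 4 cholangiocyte markers only Sox9 did, in old liver. No marker had a wide domain.

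Kap1 peaks lay on most young wide domains. Of 461, 310 overlapped a young Kap1 peak, 67.2% (62.8 to 71.4%), against 11.9% of all young H3K14ac peaks. In old liver 208 of 430 did so, 48.4% (43.7 to 53.1%), against 6.46% of all old H3K14ac peaks. Within the central 500 bp the shares were 64.2% and 46.7%, next to 10.6% and 5.54% of 500 bp peaks. Without clusters of 10 or more they were 52.1% and 28.4%. Where 50% of the Kap1 peak had to be covered they were 33.2% and 24.9%. The old Kap1 list is the shorter, with 22141 peaks against 48915, and its part in the lower old share was not tested.

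The Kap1 overlap went with position. Away from start sites 74.7% of young (70.0 to 78.8%) and 69.9% of old wide domains (64.2 to 75.1%) carried a Kap1 peak of their age. These intervals cover counting error only, and the ages were not tested against each other. At start sites the shares were 34.9% (25.7 to 45.4%) and 12.4% (8.19 to 18.4%). Of 500 bp peaks, 12.7% and 7.47% carried one away from start sites and 4.51% and 1.90% at them. Among the 170 pairs wide at both ages, 134 carried Kap1 in young and 126 in old liver, 123 at both ages, and 33 at neither. Domains wider than 1000 bp carried Kap1 in 84.2% of young and 82.6% of old cases.

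Setdb1 peaks were fewer on wide domains. A young Setdb1 peak overlapped 48 of 461 young domains, 10.4% (7.94 to 13.5%), against 2.71% of all young H3K14ac peaks. An old one overlapped 17 of 430 old domains, 3.95% (2.48 to 6.24%), against 0.82% of all old H3K14ac peaks. All 17 of these old domains and 42 of the 48 young ones also carried Kap1. The old Setdb1 list held 13877 peaks and the young one 50583. The widest young domains with both proteins were, after the one at 2700054A10Rik (6595 bp, 20.6% under Setdb1), the ribosomal RNA domain, that at Gm49692, that at Zfp981 (4291 bp, 26.1% under Setdb1) and a domain in Mroh2a (3199 bp, 93.3%). The widest old ones were 3 domains of the chromosome 1 array (3636, 2401 and 2144 bp, with 7.62%, 55.2% and 100% under Setdb1), followed by chr9:124256293-124258137 (1845 bp, 99.0%) and chr15:75085442-75087110 (1669 bp, 100%).

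Wide domains were gathered in a few places. When domains of either age within 100 kb of each other were joined, 217 clusters resulted, of which 24 held 10 or more and together took 315 young (68.3%) and 219 old domains (50.9%). Chromosome 4 had 121 young and 115 old wide domains, 26.2% and 26.7% of the total, and 7.04% and 6.23% of its H3K14ac peaks were wide. The next highest shares were 4.33% on chromosome 1 in young and 3.13% on chromosome 17 in old liver. The 1 Mb interval with the most wide domains was chr1:88000001-89000000, with 33 in young and 32 in old liver.

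Domains that stood alone, with no other wide domain of either age within 100 kb, numbered 28 in young and 100 in old liver. In old liver 90 of these 100 lay at a start site, 6 carried Kap1 and none carried Setdb1. Their median GC content was 70.8%. In young liver 16 of the 28 lay at a start site and 8 carried Kap1. In clusters of 10 or more the ages were more alike, with 11.1% of young and 10.5% of old domains at a start site and 74.3% and 67.6% with Kap1. Outside these clusters old liver thus had the more wide domains (211 against 146), while inside them young liver did.

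**Figure D4:**
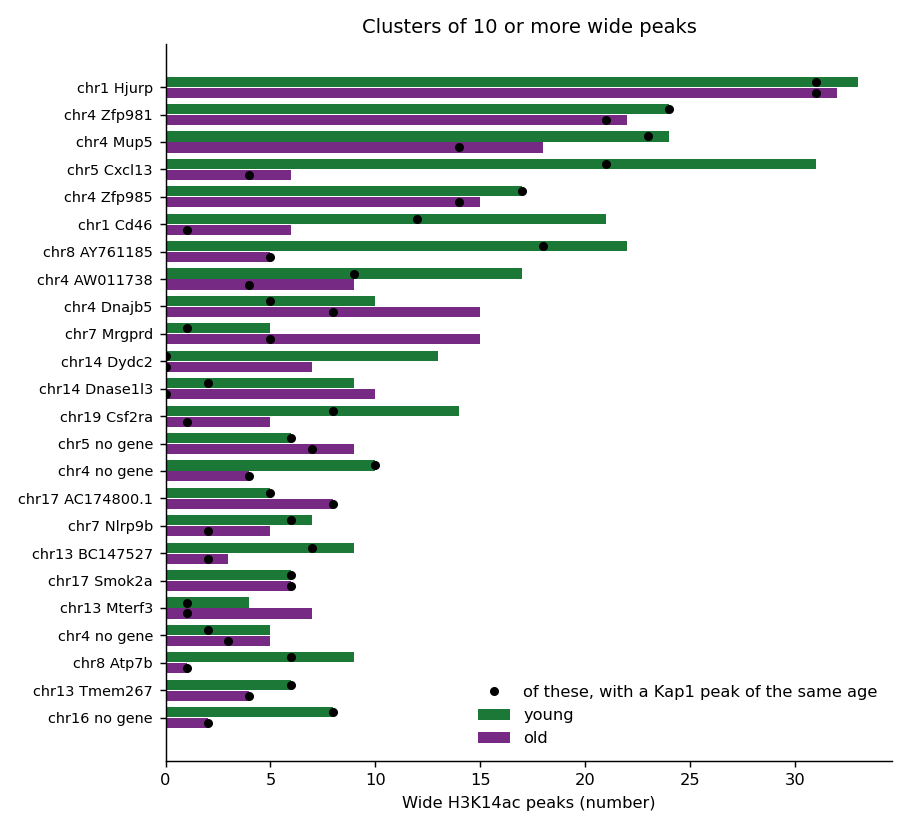
Number of wide H3K14ac peaks (horizontal axis) in young (green) and old liver (purple) for the 24 clusters of 10 or more, named by chromosome and a gene under the domains, with a black dot at the number that carry a Kap1 peak of the same age. The chromosome 1 cluster leads at both ages with 33 and 32, and the cluster at Cxcl13 falls from 31 to 6.

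The largest cluster, chr1:88211516-88310706, spans 99.2 kb from the shared 3′ part of the Ugt1a genes, which conjugate bilirubin and drugs, through Mroh2a and the centromere chaperone gene Hjurp into Trpm8, a cold-sensing channel gene. H3K14ac peaks of any width covered 81.7 kb of it in young and 83.5 kb in old liver. Kap1 peaks covered 84.8 and 82.2 kb, and 31 of 33 young and 31 of 32 old wide domains carried one. Setdb1 covered 10.6 kb in young and 4.09 kb in old liver. Coverage by H3K14ac and Kap1 in this array was thus nearly the same at the ages, and no wide domain of it had a further copy of its central sequence in the assembly.

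**Figure D5:**
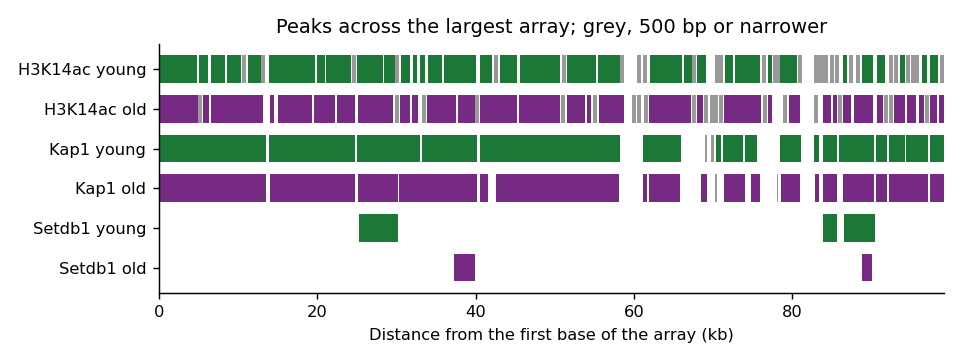
Peaks of the 6 lists across the chromosome 1 array, against distance in kb from its first base. Coloured blocks are peaks wider than 500 bp (green, young; purple, old) and grey blocks are narrower ones, and H3K14ac and Kap1 blocks fill most of the 99.2 kb at both ages.

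Of the other large clusters, that at Zfp981 and Zfp992 (chr4:146427088-146541124) had 24 young and 22 old domains, 24 and 21 of them with Kap1. The cluster around Mup5, a major urinary protein gene (chr4:61801414-61982492), had 24 and 18 domains, 23 and 14 with Kap1, and no Setdb1 peak at either age. That at Zfp985 (chr4:147234979-147599629) had 17 and 15. In these clusters blastn found further copies for 34 of 46, 22 of 42 and 24 of 32 domains. The share of 500 bp peaks with a blastn copy is not given here, so these counts are not set against peaks in general.

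Other clusters differed more in number between the ages. The one around Cxcl13, a B cell chemokine gene (chr5:95837428-95998736), had 31 young and 6 old domains, and H3K14ac peaks of any width covered 46.6 and 29.8 kb. That at the complement regulator genes Cd46, Cr1l and Cr2 (chr1:195003305-195341977) had 21 and 6. That at Defb33, a defensin gene (chr8:20841263-20994188), had 22 and 5. More old than young domains were found at Phf24 and Vcp (chr4:42867027-43000205), 15 against 10, and at Tpcn2 (chr7:145025948-145335233), 15 against 5. At Cd46 the H3K14ac peaks of any width numbered 52 in young and 54 in old liver and covered 31.5 and 27.7 kb.

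The cluster of the liver genes Mat1a and Mbl1 (chr14:41007309-41191959) had 13 young and 7 old domains, and it alone of the 24 had no Kap1 peak on any of them. Kap1 peaks were present at both ages in the spans of all 24 clusters. They covered more of the span in young than in old liver in 23 clusters and were more numerous in young liver in 18. The young Kap1 list is the longer, with 48915 peaks against 22141. H3K14ac peaks covered more in young liver in 20 clusters and were more numerous there in 14. The clusters were chosen by their wide H3K14ac peaks, which were more numerous in young liver, so these counts are descriptions only. All H3K14ac peaks on chr1 to chr19 covered 9653 kb in young and 10184 kb in old liver.

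Many wide domains lay near the edges of the assembled sequence. Within 100 kb of an assembly gap of at least 1000 unknown bases, chromosome ends included, were 110 young domains, 23.9% (20.2 to 28.0%), and 74 old ones, 17.2% (13.9 to 21.1%), against 3.43% and 2.76% of 500 bp peaks. Within 1 Mb of the distal chromosome end were 20.6% of young and 13.5% of old domains, against 3.85% and 3.28%. Of the 24 large clusters 12 lay beside such a gap, among them those at Cd46, Agrn and Tpcn2, which ended 130, 164 and 106 kb from the chromosome end. The part of position, and of the number of copies of these regions in the sequenced mice, in the widths was not tested. The input libraries against which peaks were called were not used here.

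Further copies of the central 500 bp, over at least 90% of the length at 95% identity or more, were found for 30 young (6.51%, 4.60 to 9.14%) and 16 old wide domains (3.72%, 2.30 to 5.96%), against 2.19% and 1.43% of 500 bp peaks. With blastn at 50% of the length and 90% identity, 26.2% of young and 21.2% of old wide domains had one. Of domains with Kap1 the share was 34.5% in young and 38% in old liver, and of those without it 9.27% and 5.41%. These blastn shares describe wide domains only, since none is given for 500 bp peaks.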

How the data were processed

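Peak lists, deposited as positions without scores, were analysed as given by the authors. Per the labels and the study's methods, reads were aligned to mm10 with BWA, duplicates were removed, uniquely aligned reads of the livers of an age were merged, and peaks were called with PeakSeq against input. Pooling leaves no replicate and read depth is not given, so intervals cover counting error only. H3K14ac peaks have a minimum width of 500 bp, against 150 bp for Kap1 and 200 bp for Setdb1. Overlap meant at least 1 shared bp and was checked with bedtools 2.31.1 and tested on simulated intervals. Start sites were those of all GENCODE vM21 genes, and sequences those of GRCm38.p6. Copies were searched with minimap2 2.31-r1302 and blastn 2.17.0. Named domains were the 12 widest per age, the 12 widest at protein-coding starts, the 5 largest gains and losses of width, the 5 widest with both proteins, and start sites of fixed gene lists. Of 215 protein-coding genes with a wide start-site domain, 160 had a RefSeq promoter. The members and lists were chosen with earlier results of these data known. A few start-site domains are not reported here.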

Additional observations from a re-analysis of the deposited data

How the results depend on the processing

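Most alternatives change which domains or overlaps are counted, and where a value moved the cause was not tested. The old-to-young ratio in number, 0.933, turned to 1.23 (1126 against 917 domains) with overlapping peaks merged first, and to 1.10 (1477 against 1338) with peaks within 1000 bp merged and widths over 1000 bp kept. It was 1.45 (211 against 146) without clusters of 10 or more and 1.01 without domains within 100 kb of an assembly gap. Protein-coding genes with a wide start-site domain, 90 in young and 165 in old liver, became 359 and 705 with overlapping peaks merged first. This setting for genes and the last 2 for the number, like those without the largest cluster or without a blastn copy, were chosen after seeing the data.

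The share with an H3K14ac peak of the other age was 47.3% (young) and 60.9% (old) at an overlap of 50% of the domain, 42.3% and 49.1% at 50% of both peaks, 79.0% and 82.6% where peaks up to 500 bp apart counted, and 90.2% and 96.7% for widths over 1000 bp (92 old and 133 young domains). For a wide partner the first 3 of these settings gave 30.2% and 38.8%, 23.6% and 25.3%, and 45.1% and 48.4%. With widths over 1000 bp required of both the domain and its partner, it was 47.4% and 68.5%. This share was 35.3% in young without the largest cluster, and in old 27.0% without clusters of 10 or more, 36.6% without a blastn copy and 37.9% away from gaps.

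The start-site share was 43.0% and 55.1% within 5 kb, 13.5% and 19.6% for widths over 1000 bp, and 34.9% and 65.4% without clusters of 10 or more. The last pair lay above the 25.7% and 34.7% of all peaks, clusters included. In young it was 24.7% from any base and 14.5% for protein-coding starts, and in old 44.0% without a blastn copy and 42.4% away from gaps. It was higher in old than in young liver under each setting run.

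The Kap1 share was 33.2% and 24.9% where 50% of the Kap1 peak had to be covered, 84.2% and 82.6% over 1000 bp, 52.1% and 28.4% without clusters of 10 or more, and 59.7% and 38.1% without a blastn copy. It was 74.0% in young where peaks up to 500 bp apart counted, and 41.0% in old away from gaps. The Setdb1 share was 16.5% and 10.9% over 1000 bp, 7.65% and 2.36% without a blastn copy, and 18.5% in young without clusters of 10 or more. Copies were found for 11.1% and 9.30% at 50% of the length and 90% identity with minimap2, and for 26.2% and 21.2% with blastn. The remaining 65 values stayed within their counting interval or within 1.5 times the count. No paired analysis was possible because the livers of an age were pooled before peaks were called, and no liver could be left out for the same reason.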
